A study of Mus musculus with 6 samples.

Results

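This account concerns 10 genes that encode tubulin isotypes in primary cultures of mouse dorsal root ganglia: the alpha genes Tuba1a, Tuba1b and Tuba1c and the beta genes Tubb2a, Tubb2b, Tubb3, Tubb4a, Tubb4b, Tubb5 and Tubb6. They were chosen by gene symbol from the 45703 genes of the deposited count table, with no measured value in the rule. Earlier results of these data were, however, known when they and the gene lists below were chosen. The table's own gene descriptions name all 10 as tubulin alpha or beta. All 10 passed the filter on low counts, which 14998 genes passed. The samples were 6 replicate cultures of 1 group, so no contrast between conditions exists. The mice were C57BL/6, wild type and 4 to 6 weeks old. Their ganglia were dissociated with enzymes, plated on poly-L-lysine and grown for 7 days in medium that held 10% serum and the growth factors EGF and FGF (10 ng/ml). RNA from 2 dishes went into each sample, and the labels do not say whether the replicates came from separate mice. Every p-value below therefore concerns these 6 samples only and cannot be extended to differences between mice.

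Tubulin is the building block of microtubules, the hollow filaments that carry transport along axons and form the mitotic spindle. An alpha and a beta chain fold together into a dimer, and dimers join head to tail. Mammals have several genes for each chain. Their products differ mainly in the acidic tail at the carboxyl end, where motors and other partners bind and where many chemical modifications are added. Tubb3 is widely used as a marker of neurons, Tuba1a and Tubb2b are prominent in developing and regrowing neurons, Tubb5, Tuba1b and Tuba1c are made in most cells, and Tubb6 is best known from cells that are not neurons.

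Libraries held 20070639 to 22968642 counts. Values are given as CPM (the count of a gene scaled by the total of its library) and, where genes are compared, as CPM per kilobase of the gene's combined exon length. The summed marker levels below are CPM after TMM scaling, a correction of library size. Neuron markers were counted in all 6 cultures (12 of 12 marker genes passed the filter, summed level 607 to 1235 CPM), as were glial lineage markers (8 of 8, 4544 to 7048 CPM) and fibroblast markers (8 of 8, 3372 to 13980.1 CPM). Summed ranges were 216 to 1876 CPM for mural cell markers, 15.5 to 134 CPM for macrophage markers, 10.5 to 126 CPM for endothelial markers and 286 to 568 CPM for cell cycle genes. Cultures 1 and 5 stood at opposite ends: culture 1 had the lowest and culture 5 the highest fibroblast, mural, macrophage and endothelial score. In bulk libraries, fewer cells of a type and less RNA per cell cannot be told apart.

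The coding sequences of the isotypes are alike enough to affect how reads can be assigned. Over whole coding sequences of GENCODE M21 transcripts, Tuba1a and Tuba1b were 98.3% identical, Tuba1b and Tuba1c 97.9%, and Tuba1a and Tuba1c 97.1%. These 3 genes are neighbours on chromosome 15, with 15456 bases between Tuba1b and Tuba1a and 76389 bases between Tuba1a and Tuba1c. For 4 beta genes the last 60 coding bases, stop codon included, are shown 5′ to 3′ on the coding strand, from the same transcripts on GRCm38. Capitals mark bases that do not align to the same base of Tubb2a.

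Tubb2a: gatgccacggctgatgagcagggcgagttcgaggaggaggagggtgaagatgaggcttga

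Tubb2b: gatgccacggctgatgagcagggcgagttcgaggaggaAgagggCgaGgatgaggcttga

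Tubb3: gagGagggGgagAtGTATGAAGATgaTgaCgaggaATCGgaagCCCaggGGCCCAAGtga

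Tubb4b: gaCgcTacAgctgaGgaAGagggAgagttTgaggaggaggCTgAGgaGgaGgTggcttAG

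Tubb2b departed from Tubb2a at 3 of the 60 bases, Tubb4b at 17 and Tubb3 at 30, which leaves Tubb3 with the most divergent tail of the 4. These stretches lie at chr13:34074468-34074527 (minus strand) for Tubb2a, chr13:34127471-34127530 (minus strand) for Tubb2b, chr8:123421623-123421682 (plus strand) for Tubb3 and chr2:25222308-25222367 (minus strand) for Tubb4b. Tubb2a and Tubb2b, 48999 bases apart on chromosome 13, were 96.5% identical over their coding sequences. The next closest beta pair, Tubb3 and Tubb6, shared 86.0% of aligned bases.

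Sharing was then measured along whole transcripts, since a read that fits several genes cannot be given to 1 of them with certainty. Of all 50-base stretches of the Tuba1b transcript, 73.8% also occurred in a transcript of another gene, as did 72.9% for Tuba1a and 61.0% for Tuba1c. The share was 50.9% for Tubb4b, 49.6% for Tubb2a and 39.3% for Tubb2b, but 0.184% for Tubb4a, 0.115% for Tubb5 and 0% for Tubb3 and Tubb6. With 100-base stretches the alpha genes still shared 53.4% to 69.5%. The 3′ untranslated parts of the 6 most alike genes had no shared 50-base stretch, and 90.4% to 95.6% of stretches inside the coding part were shared for the 3 alpha genes.

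**Figure D1:**
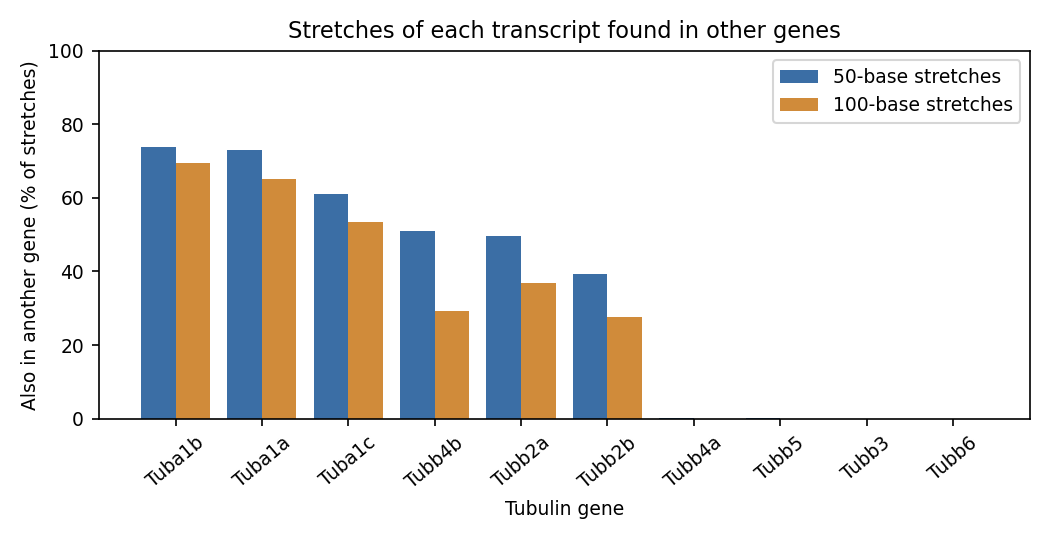
Percentage of all 50-base (blue) and 100-base (orange) stretches of each tubulin transcript that also occur in a transcript of another gene; bars start at 0 and each stands for 1 reference transcript, with no error. The 3 alpha genes reach 61.0% to 73.8% at 50 bases, while Tubb3 and Tubb6 are at 0%.

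Counts that were not whole numbers were found in all 6 libraries for 7 of the 10 genes, against 11.6% of all genes tested. Tuba1c was fractional in 5 libraries, and Tubb4a and Tubb6 in 1 each. Tubb3 was fractional in all 6 although none of its 50-base stretches occurred in the other GENCODE transcripts searched; the transcripts searched held 0 entries for Tubb3-ps1, a pseudogene that the count table lists. Tubb3-ps1 had between 115 and 239.5 counts per library, 1.66% ± 0.158 of the Tubb3 count (SD, n = 6).

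Pseudogene copies held many counts next to some members. Tubb4b-ps1 carried 18.6% ± 0.271 of the Tubb4b count and Tubb4b-ps2 4.66% ± 0.417, while Tubb2a-ps2 carried 2.47% ± 0.274 of the Tubb2a count (SD, n = 6). For the alpha genes the amount was larger. The table lists 10 pseudogenes that share 50-base stretches with them, and together these held 34.3% to 37.1% as many counts as Tuba1a, Tuba1b and Tuba1c combined (mean 35.7% ± 1.02, SD, n = 6). The highest were Gm3226, at 237 ± 10.5 CPM, and Gm14150, at 202 ± 4.62 CPM; these pseudogenes were found through the shared stretches and were named after their values were seen. Whether these counts are reads of the alpha genes was not tested, so the levels of the 3 alpha genes and the split among them are uncertain.

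Tuba1a, the alpha isotype of growing neurons, was the highest of the 10 genes. It was counted at 2030.4 CPM in culture 1, 1774 in culture 2, 1817 in culture 3, 1737 in culture 4, 1505 in culture 5 and 1719 in culture 6. Culture 1 was the highest and culture 5 the lowest, with the other 4 close together between them. Per kilobase its level was 1109 ± 107 CPM (SD, n = 6), which placed it 8th of all genes in the table.

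Tuba1b and Tuba1c, the widely made alpha isotypes, were lower and steadier. Tuba1b had 453, 442, 455, 454, 443 and 457 CPM in cultures 1 to 6, and Tuba1c had 453, 426, 439, 439, 415 and 431 CPM. The lowest and highest cultures of Tuba1b differed by a factor of 1.05 after TMM scaling, a correction of library size, with a coefficient of variation (CV, the SD as a percentage of the mean) of 1.74%. Only 0.147% of genes tested had a smaller CV. Per kilobase the level was 288 ± 4.196 CPM for Tuba1b and 219 ± 6.64 CPM for Tuba1c (SD, n = 6). Both share most of their 50-base stretches with other genes, as given above, and how such reads were counted is not given in the sources used here.

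Among the beta genes, Tubb5, the class I isotype of most dividing cells, came first. It had 1018 CPM in culture 1, 1019 in culture 2, 1007 in culture 3, 1004 in culture 4, 1088 in culture 5 and 977 in culture 6, which is 385 ± 14.1 CPM per kilobase (SD, n = 6). Culture 5 was its highest library, where most other members were lowest.

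Tubb3, the neuronal class III isotype, varied most of the 10 genes. Its level was 515 CPM in culture 1, 377 in culture 2, 601 in culture 3, 467 in culture 4, 317 in culture 5 and 468 in culture 6. Cultures 3 and 1 were high and cultures 5 and 2 low, with a CV of 21.2% and a highest over lowest ratio of 1.87 after TMM scaling. Per kilobase its mean was 263 ± 57.7 CPM (SD, n = 6).

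The class II pair Tubb2a and Tubb2b, which are abundant in neurons, followed another order. Tubb2b had 659 CPM in culture 1, then 516.5, 494, 473, 446 and 431 CPM in cultures 2 to 6. Tubb2a had 456 CPM in culture 1 and 415, 404, 377, 352 and 360.3 CPM in cultures 2 to 6. Culture 1 thus stood above the rest for both, and cultures 5 and 6 were lowest for both. Per kilobase the means were 262 ± 42.7 CPM for Tubb2b and 245 ± 24.2 CPM for Tubb2a (SD, n = 6).

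The class IV and V genes were the lowest. Tubb4b, a broadly made isotype also used in cilia, had 214, 231, 237, 238, 208 and 261 CPM in cultures 1 to 6. Tubb4a, an isotype of neurons and myelinating glia of the brain, had 157, 113, 144, 119, 106 and 122 CPM. Tubb6, the class V gene, had 105, 141, 121, 156, 171 and 152 CPM. Tubb6 ran opposite to Tubb4a at both ends, being lowest in culture 1 and highest in culture 5, where Tubb4a was highest and lowest. Per kilobase the means were 145 ± 11.9 CPM for Tubb4b, 81.0 ± 13.9 CPM for Tubb6 and 61.9 ± 9.54 CPM for Tubb4a (SD, n = 6).

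**Figure D2:**
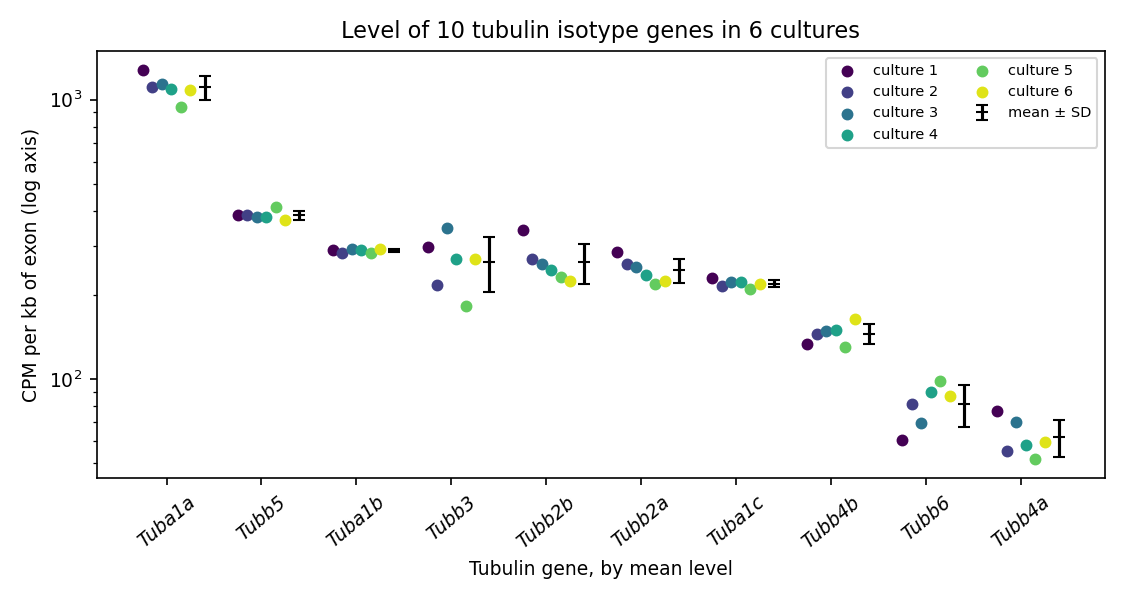
Level of each gene in CPM per kilobase of exon (log axis) in cultures 1 to 6 (coloured points), with the mean and SD of the 6 cultures in black; genes are ordered by mean level. Tuba1a lies near 1109 and Tubb4a near 61.9, and the points of Tubb3, Tubb2b and Tubb2a overlap.

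All 45 pairs of genes were compared within each library on the scale log2(CPM per kilobase + 0.1). For 39 pairs the same gene was higher in all 6 libraries (two-sided exact sign-flip permutation test, p = 0.0312, the smallest it can give; 0.0361 after Benjamini-Hochberg adjustment over the 45 pairs). Tuba1a exceeded Tubb5 by 1.52 ± 0.174, and Tubb5 exceeded Tuba1b by 0.42 ± 0.0690 (log2, SD, n = 6). Counts of pseudogene copies were left out of these pairs. Gm3226 (237 CPM) and Gm14150 (202 CPM) share more stretches with Tuba1b (451 CPM) than with any other member. The place of Tuba1b and the other alpha genes in this order is therefore uncertain. An assignment of shared reads that is alike in all libraries would also give 1 direction in all 6. The 6 pairs that did not pass were 5 pairs in the middle of the order, 4 of them with Tubb3, and the lowest pair. Tubb2b and Tubb3 differed by 0.0088 ± 0.325, with each higher in 3 libraries (exact permutation, adjusted p = 0.969), and Tubb6 exceeded Tubb4a by 0.38 ± 0.468 in 4 of 6 libraries (exact permutation, adjusted p = 0.137). Tuba1b was above Tubb3 by 0.16 ± 0.311 in 4 of 6 libraries (exact permutation, adjusted p = 0.327).

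Tubb2b exceeded Tubb2a by 0.085 ± 0.0957 in 6 of 6 libraries, but the ratio of the 2 levels was 1.21 in culture 1 and from 1.00 to 1.06 in the others. With the length of the GENCODE transcript in place of the combined exon length the sign turned, to -0.095 (exact permutation, adjusted p = 0.0760), so the order of this pair depends on the length used.

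Shares of the summed level show the isotype make-up of each chain. Tuba1a made up 68.5% ± 1.77 of the alpha sum, Tuba1b 17.9% ± 1.17 and Tuba1c 13.6% ± 0.602 (SD, n = 6). The share of Tuba1a was highest in culture 1, at 71.1%, and lowest in culture 5, at 65.7%. In the beta sum, Tubb5 made up 26.8% ± 2.35, Tubb3 18.1% ± 3.15, Tubb2b 18.1% ± 2.03, Tubb2a 17.0% ± 0.929, Tubb4b 10.1% ± 1.05, Tubb6 5.68% ± 1.30 and Tubb4a 4.27% ± 0.389 (SD, n = 6). These shares leave out counts of pseudogene copies. With named pseudogene counts added, the mean level of Tubb4b rose from 145 to 178 CPM per kilobase, so its share is uncertain.

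No single beta isotype dominated, and the make-up shifted between cultures. Tubb3 ranged from 13.8% of the beta sum in culture 5 to 22.7% in culture 3. Tubb6 ranged from 3.82% in culture 1 to 7.42% in culture 5. The ratio of Tubb3 to Tubb6 was 4.91 in culture 1, 2.68 in culture 2, 4.97 in culture 3, 3.00 in culture 4, 1.85 in culture 5 and 3.10 in culture 6.

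**Figure D3:**
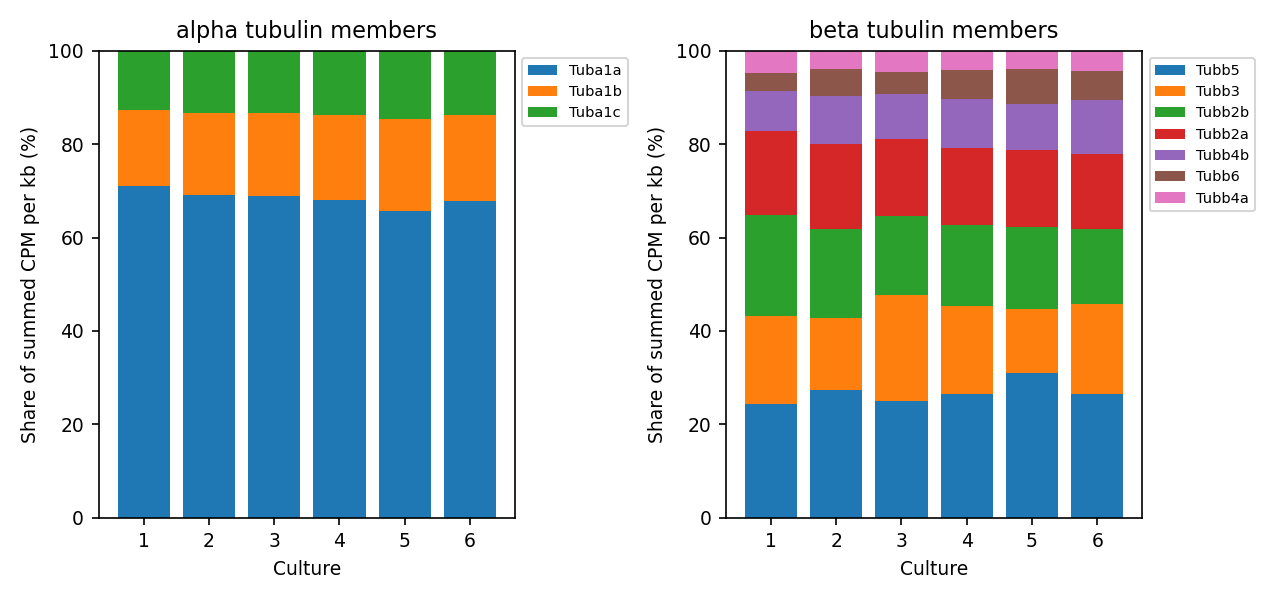
Share of each gene in the summed CPM per kilobase of the 3 alpha genes (left) and of the 7 beta genes (right), in percent, for cultures 1 to 6; each bar is 1 library and adds up to the whole. Tuba1a fills 65.7% to 71.1% of the alpha bars, and the Tubb3 part of the beta bars is tallest in culture 3 and shortest in culture 5.

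Although alpha and beta chains are used in equal number, their summed transcript levels need not match. The alpha sum was 1616 ± 115 CPM per kilobase and the beta sum 1443 ± 91.8 (SD, n = 6). Their ratio was 1.12 ± 0.0266, with values of 1.14, 1.14, 1.09, 1.13, 1.09 and 1.14 in cultures 1 to 6. It became 1.05 with GENCODE transcript lengths. When the counts of all copies were added to the genes they share stretches with, the ratio was 1.47 ± 0.0319 (SD, n = 6), so its size depends on the handling of shared reads. The 10 genes together took 0.552% ± 0.0340 of all counts.

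Differences between cultures were tested against counting noise with a chi-square test per gene and Benjamini-Hochberg adjustment over the 14998 genes tested. All 10 members varied beyond counting noise, as did 76.3% of genes tested and 98.2% of the 2425 tested genes with a mean of at least 100 CPM, so the count says nothing particular to tubulins. The weakest call was Tuba1b (chi-square test, adjusted p = 0.0177), which was lost with scaling by library totals (adjusted p = 0.0868), without culture 5 (0.208) and without culture 6 (0.0595). The other 9 calls were kept in these 3 fits.

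The size of the spread separated the genes better. Tubb3, Tubb6, Tubb2b and Tubb4a differed by at least 1.5-fold between their highest and lowest culture, that is 4 of 10, against 39.0% of genes tested and 26.3% of those with at least 100 CPM. The ratios were 1.87 for Tubb3, 1.6002 for Tubb6, 1.53 for Tubb2b and 1.51 for Tubb4a. Tubb5 (CV 3.69%), Tuba1c (3.43%) and Tuba1b (1.74%) were the steadiest. The median CV was 10.4% for the 10 genes, 12.1% for all genes tested and 9.38% for those with at least 100 CPM.

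The direction of the extremes was uneven. On TMM-scaled CPM, 7 of 10 members were lowest in culture 5, against 28.0% of genes tested, and 5 were highest in culture 1, against 20.3%. Without scaling, the first count is 6, because Tuba1b is then lowest in culture 2. Tubb5 and Tubb6 were the 2 members highest in culture 5 (27.5% of genes tested), and Tubb6 was the 1 member lowest in culture 1 (21.9%). Members that share reads do not count as separate evidence here.

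**Figure D4:**
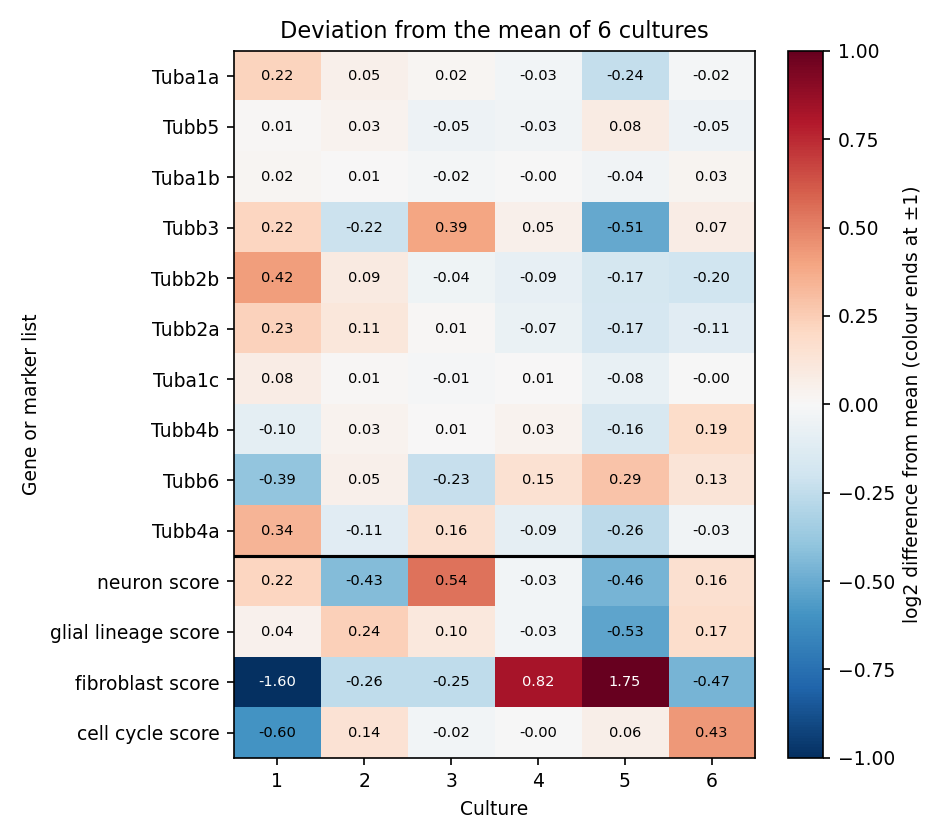
Difference of each culture from the mean of the 6 cultures on the log2 scale, for the 10 genes (TMM-scaled CPM, top) and for 4 marker list scores (bottom); red is above and blue below the mean, the number in each cell is the value, and the colour ends at ±1. Tubb3 is 0.51 below its mean in culture 5 and 0.39 above it in culture 3, and the neuron score shows the same extremes at -0.46 and 0.54.

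Each member was set beside the scores of 4 marker lists across the 6 cultures, 40 relations in all; a score is the mean of log2(TMM-scaled CPM per kilobase + 0.1) over the genes of a list. With exact permutation over the 720 pairings and Benjamini-Hochberg adjustment, 0 relations passed at 0.05 for Pearson's r or for Spearman's rho, while 6 and 3 had an unadjusted p under 0.05. The nearest was Tubb3 with the neuron list, which did not include Tubb3: r = 0.95 (exact permutation p = 0.00139, adjusted 0.0556) and rho = 1.00 (exact permutation p = 0.00278, adjusted 0.111). Without cultures 2 and 5, the farthest from the median neuron score, r was 0.95. The 6 cultures thus ranked alike by Tubb3 and by the mean score of the neuron list. Its genes differed: 11 of 12 were highest in culture 3 and 7 lowest in culture 5. With this list, r was 0.49 for Tuba1a, 0.24 for Tubb2a and 0.18 for Tubb2b (exact permutation, adjusted p = 0.438, 0.695 and 0.781). Tubb4a had r = 0.78 and rho = 0.94 (exact permutation, adjusted p = 0.284 and 0.333). Without cultures 2 and 5, r was 0.14 for Tuba1a, 0.24 for Tubb2a, 0.086 for Tubb2b and 0.53 for Tubb4a.

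Relations with the fibroblast score were looser. Tuba1a had r = -0.94 (exact permutation p = 0.0208, adjusted 0.284) and rho = -0.83 (p = 0.0583, adjusted 0.538). Tubb6 had r = 0.83 (exact permutation p = 0.0417, adjusted 0.284) and rho = 0.77 (p = 0.103, adjusted 0.538). Both rest on the 2 extreme cultures: without cultures 1 and 5, r was -0.47 for Tuba1a and 0.37 for Tubb6. Tuba1c had r = -0.89 (exact permutation p = 0.0458, adjusted 0.284). Tubb4a had r = -0.86 (exact permutation p = 0.0222, adjusted 0.284). Without cultures 1 and 5 these became 0.33 for Tuba1c and -0.33 for Tubb4a. The labels give no batch, so no value within batches exists, and the part of the cell mixture in these values was not tested.

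**Figure D5:**
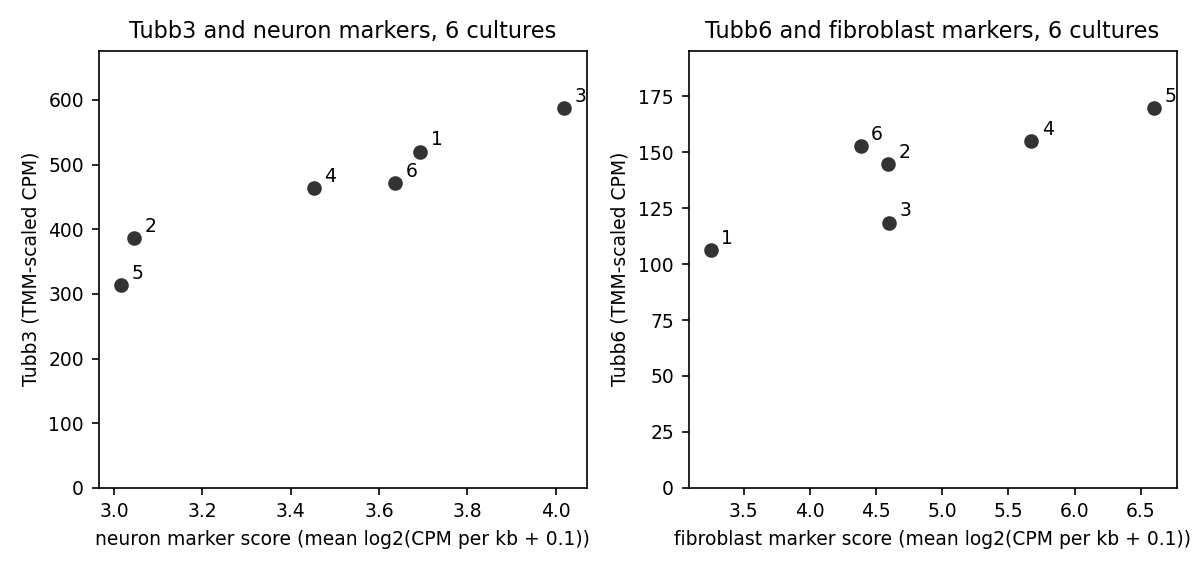
TMM-scaled CPM of Tubb3 against the neuron marker score (left) and of Tubb6 against the fibroblast marker score (right); each point is 1 culture, labelled with its number, and the vertical axes start at 0. Tubb3 follows the same order as the neuron score, from culture 5 to culture 3, and Tubb6 is lowest in culture 1 and highest in culture 5.

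Other tubulin genes were far lower. Of 10 such genes, 6 passed the filter and 5 of these varied beyond counting noise (83.3%, close to the 76.3% of all genes tested). Tubg1, the gamma tubulin that seeds microtubules at the centrosome, led at 18.7 ± 2.13 CPM per kilobase, followed by its relative Tubg2 at 4.03 ± 0.678 (SD, n = 6). Tuba4a reached 3.22 ± 0.790 and Tuba8 1.32 ± 0.325 CPM per kilobase. Tubd1, the delta tubulin of centrioles, did not pass the test (chi-square test, adjusted p = 0.925). Tuba3a and Tuba3b, Tubal3 and Tubb1, the isotype of platelets, had at most 2 counts in any library, and 3 counts correspond to 0.131 to 0.149 CPM here, so they were not detectable at this depth.

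Genes that fold tubulin differed by little between cultures. Chains are folded by the chaperonin CCT, with help from prefoldin, and then joined by the tubulin cofactors. All 22 genes listed were tested, and 19 varied beyond counting noise (86.4%, against 76.3% of all genes). Their median CV was 6.43%, against 12.1% for all genes tested and 9.38% for those with at least 100 CPM. A 1.5-fold range was reached by 1 gene, against 39.0% of all genes and 26.3% of those with at least 100 CPM. The list also had a higher median level, 48.4 CPM per kilobase against 7.20 for all genes tested. The CCT subunits Cct2 and Cct5 had 103 ± 11.2 and 97.2 ± 4.78 CPM per kilobase, and the prefoldin subunit Pfdn5 99.2 ± 5.42 (SD, n = 6). Cct3, another subunit, had 90.8 ± 7.46, whereas the prefoldin subunit Pfdn4 had 12.9 ± 1.54 CPM per kilobase. Tbcel, a cofactor-like protein, was the exception, with 72.4 to 137.5 CPM.

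Microtubule-associated proteins and stathmins spread more widely. All 24 genes of this list varied beyond counting noise, against 76.3% of all genes tested and 98.2% of those with at least 100 CPM. A 1.5-fold range was reached by 18, against 39.0% and 26.3%. The median CV was 22.8%, against 12.1% and 9.38%. Of the 24, 18 were lowest in culture 5 (28.0% of all genes tested) and 12 highest in culture 3 (15.1%). Stmn2, a neuronal stathmin that binds tubulin dimers, led per kilobase at 168 ± 62.0 CPM and ranged from 156 CPM in culture 5 to 488 CPM in culture 3, the same extremes as Tubb3. Stmn1, the stathmin of dividing cells, had 97.1 ± 14.1 CPM per kilobase (SD, n = 6). Stmn4, another stathmin of neurons, ranged from 9.75 to 24.1 CPM between the same cultures. Map1b, a protein of growing axons, was highest in culture 1, with 1980.4 CPM, and lowest in culture 5, with 1002 CPM. Map4, the broadly made member, stayed between 1231 and 1445 CPM. In the neuron list, 11 of 12 genes were likewise highest in culture 3 and 7 lowest in culture 5. How far the neuron content of each culture accounts for these values was not tested.

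Enzymes that modify tubulin were near the middle of all genes tested in level. Of 26 genes, 20 were tested and 15 varied beyond counting noise (75.0%, against 76.3%), with a median level of 6.49 CPM per kilobase against 7.20 for all genes tested. Sirt2, a deacetylase that acts on tubulin and is abundant in myelinating glia, stood out at 112 ± 17.6 CPM per kilobase and was lowest in culture 5. That culture was lowest for 9 of the 20 tested genes of this list and for 8 of 8 glial lineage markers, against 28.0% of all genes tested. Whether glial content accounts for the Sirt2 values was not tested. Vash1, which removes the last tyrosine of alpha tubulin, ranged from 104 CPM in culture 6 to 222 CPM in culture 1. Ttll7, a polyglutamylase, ranged from 55.6 CPM in culture 2 to 122 CPM in culture 3. The Vash1 partner Svbp did not pass the test (15.3 ± 0.800 CPM per kilobase, chi-square test, adjusted p = 0.363), and Ttl, which puts the tyrosine back, had 16.3 ± 2.505 CPM per kilobase.

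Genes of microtubule ends and severing enzymes mostly stayed within a 1.5-fold range. All 22 genes were tested and 21 varied beyond counting noise (95.5%). The share was 76.3% of all genes tested and 98.2% of those with at least 100 CPM. Only 2 did so by at least 1.5-fold, against 39.0% and 26.3%. The median CV was 8.90%, against 12.1% and 9.38%. The median level of the list was 10.5 CPM per kilobase, against 7.20 for all genes tested. The end-binding genes Mapre2, Mapre1 and Mapre3 had 43.2 ± 4.97, 36.4 ± 1.88 and 26.9 ± 3.11 CPM per kilobase, and Ckap5, a polymerase of growing ends, 31.5 ± 2.49 (SD, n = 6). Fignl1, a relative of the severing enzyme fidgetin, spread most, from 5.14 CPM in culture 1 to 12.5 CPM in culture 5, while Fign, fidgetin itself, ranged from 81.0 to 108 CPM.

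Finally, the genes whose pattern over the 6 libraries was most like that of each member were listed by Pearson's r of log2(TMM-scaled CPM + 0.5) among 11932 genes. For Tubb3 these were Gdap1l1 (r = 0.996), Stac (0.993) and Mapk8ip2 (0.991). For Tubb6 they were Pgd, H2az1 and Suz12, and for Tubb2b Ppfibp2, Brwd3 and Plekha1. The best match of each of the 10 members had an r of 0.981 or more. Between members, Tuba1a and Tuba1c (r = 0.97) and Tubb2a and Tubb2b (r = 0.95) were the most alike pairs. Both are pairs with long shared stretches. Tuba1b and Tuba1c share more 50-base stretches (1005) than Tuba1a and Tuba1c (822), with r = 0.78. Tuba1a and Tuba1b, the most identical pair (98.3%), had r = 0.70. Tuba1b varied little between cultures (CV 1.74%), so its coefficients rest on small differences. Tuba1a and Tubb2a share no such stretch and had r = 0.91. Whether shared reads account for these coefficients was not tested. Tubb4a and Tubb6 were the most opposed (r = -0.97). These coefficients describe 6 libraries and carry no test.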

How the data were processed

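RNA sequencing was analysed from 6 replicate cultures. Per the labels' protocols, the libraries were stranded and selected for poly-A, with 500 ng of RNA as input and 15 cycles of PCR. The authors deposited 1 table of estimated counts per gene, not scaled; 13.4% to 14.7% of its values per library were not whole (tolerance 0.001). Per the submitters' processing notes, the tools included cutadapt 2.5, STAR 2.7.2b and featureCounts 1.6.4 with GRCm38.p6; strand setting and handling of multi-matching reads are not given in the sources used here. The exon length per gene and other annotation were deposited with the counts; 0 further columns of sample values were present.

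Counts were rounded for edgeR 4.0.16 (filterByExpr, TMM factors 0.977 to 1.02) and DESeq2 1.42.0 size factors. CPM used library totals unless called TMM-scaled, and the marker sums were TMM-scaled. The chi-square test, checked on simulated counts for 14998 genes, recovered 86 of 100 genes changed 1.5-fold and 97 of 100 changed 2-fold with 6 other calls. Simulated noise was Poisson. Stretches and coding identities came from 141767 GENCODE M21 transcripts, taking per member the transcript with the longest coding sequence. Members and lists were chosen with earlier results of these data known. Named genes were the members and, per list, the 4 highest per kilobase and the 2 of highest CV with a mean of at least 5 CPM; Tubd1 and the genes under 3 counts were named after their values were seen. Marker lists are given as sums and scores.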

Additional observations from a re-analysis of the deposited data

How the results depend on the processing

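Across the alternatives run, 39 ordered pairs became 36 without length and 36 with GENCODE transcript lengths (an alternative chosen after seeing the data), stayed 39 with a pseudocount of 1, and lay between 39 and 40 without single replicates. With 5 libraries the sign-flip test cannot go below 0.0625, so those fits bear only on direction. The pairs were not run with copy counts added. Without length, Tubb2a over Tuba1c became -0.14 and Tuba1b over Tubb2b -0.14. With GENCODE lengths, Tubb3 over Tubb2a became -0.024, Tubb2b over Tubb3 -0.071 and Tubb2b over Tubb2a -0.095. Leaving out single replicates moved Tubb2b over Tubb3 between -0.059 and 0.096. The alpha to beta ratio of 1.12 became 1.05 with GENCODE lengths, 1.09 with named pseudogene counts added and 1.47 with all copy counts added (chosen after seeing the data). The named pseudogenes raised beta levels only: Tubb3 to 267, Tubb2a to 251 and Tubb4b to 178 CPM per kilobase. The levels of Tuba1a, Tuba1b and Tuba1c were unchanged by them, so that fit adds copies to 1 chain only. Between 9 and 10 members varied beyond counting noise (Tuba1b was the one lost), and 0 relations passed in each of the 4 alternatives. The RefSeq transcript length could not be run because the tables used give none. Relations were not run without single replicates; r without the 2 extreme cultures stands beside those named in the report. No paired analysis was possible because there is 1 group. Dixon's ratio was applied to 21 measures of the members, and 0 of these held a library far from the others. That result does not extend to every measure reported. In the ratio of Tubb2b to Tubb2a, culture 1 stood apart at 1.21, against 1.00 to 1.06 in the other cultures.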
